A study of Rattus norvegicus with 30 samples.

Results

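The 35 genes described here are transcripts used to recognise neurons, astrocytes and oligodendrocytes, read in RNA of isolated rat microglia. They were chosen by gene symbol as markers of these cells, with earlier results of these data known: 9 oligodendrocyte genes, 10 astrocyte genes, 12 neuron genes and 4 genes of the oligodendrocyte lineage and its precursors. A probe set with a member's symbol was found for 33 of the 35, out of 14506 named genes in all, and Sox9 and Olig2 had none. Where a gene had several probe sets, the one with the highest mean over the 30 arrays was used.

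The study measured microglial RNA on arrays after a stroke made by 75 min of filament occlusion of the middle cerebral artery under 1.2% isoflurane, to follow microglia between day 3 and day 14 and to compare 3-month-old with 12-month-old brains. All rats were male. The labels conflict on the strain: the strain field reads Wistar Kyoto, whereas spontaneously hypertensive rats are named in the protocols. The 10 groups hold 3 arrays each: at 3 months and at 12 months of age, a sham control, the injured (ipsilateral) hemisphere on day 3 and on day 14, and the opposite (contralateral) hemisphere on day 3 and on day 14. The sample codes tie the injured and the opposite sample of each of the 12 stroke animals to each other, so a contralateral sample is not from an unoperated brain. Nothing states that the sham samples came from separate animals, and p-values for them measure the spread between those samples only. Which hemisphere the sham samples came from, and how the cells were isolated, are not given in the sources used here.

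Microglia are the resident phagocytes of the brain, and they take up dying cells, synapses and myelin debris after a stroke. Transcripts of neurons, astrocytes and oligodendrocytes can reach a microglial RNA sample with other cells, with cell fragments or with engulfed material, and some of these genes are also transcribed in microglia. Myelin is the membrane that oligodendrocytes wrap around axons, astrocytes regulate water, potassium and glutamate around synapses, and neurons carry the synaptic vesicle and cytoskeletal proteins named below. In bulk RNA such as this, fewer cells of a type and less of that type's RNA per cell cannot be told apart, and the source of each transcript was not tested.

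The values are log2 intensities on a scale where 1 unit is a factor of 2. A gene was tested when it lay above its array's 30th percentile, which fell between 4.07 and 4.35, on at least 3 arrays. Of 33 members 25 passed, and of all named genes 11675 passed. All 13 microglia markers with a probe set lay above that percentile on every array, as did 67.2% of all named genes. Of the 33 members 19 did so on all 30 arrays (57.6%), and 5 did so on none: Ugt8, which makes a myelin lipid, the vesicle calcium sensor Syt1, the neurofilament subunit Nefm, the GABA-synthesising enzyme Gad2 and the glutamate receptor subunit Gria2. The other members that did not pass were the astrocyte connexins Gja1 and Gjb6 and the lineage factor Olig1. The defining markers therefore differed: Mbp, Mog, Gfap, Aqp4 and Snap25 lay above the percentile on all 30 arrays, Pdgfra on 27 and Syt1 on 0.

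One array stood apart, and it bears on many of the values that follow. The first replicate of the opposite hemisphere at 3 months and day 14 carried the highest value of all 30 arrays for 16 of the 33 members (48.5%), against 4.88% of all tested genes. On that array the members lay on average 0.44 log2 units above their means over 30 arrays, while the 29 other arrays lay between -0.16 and 0.17. The injured hemisphere of the same animal lay at -0.008 over all members. Over the oligodendrocyte members it lay at 0.13, against -0.08 and -0.04 on the other injured arrays of that group. The hemisphere calls at 3 months and day 14 are given with and without it. Replicates within a group, that array included, correlated at r between 0.987 and 0.995 over all 29214 probe sets.

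**Figure D1:**
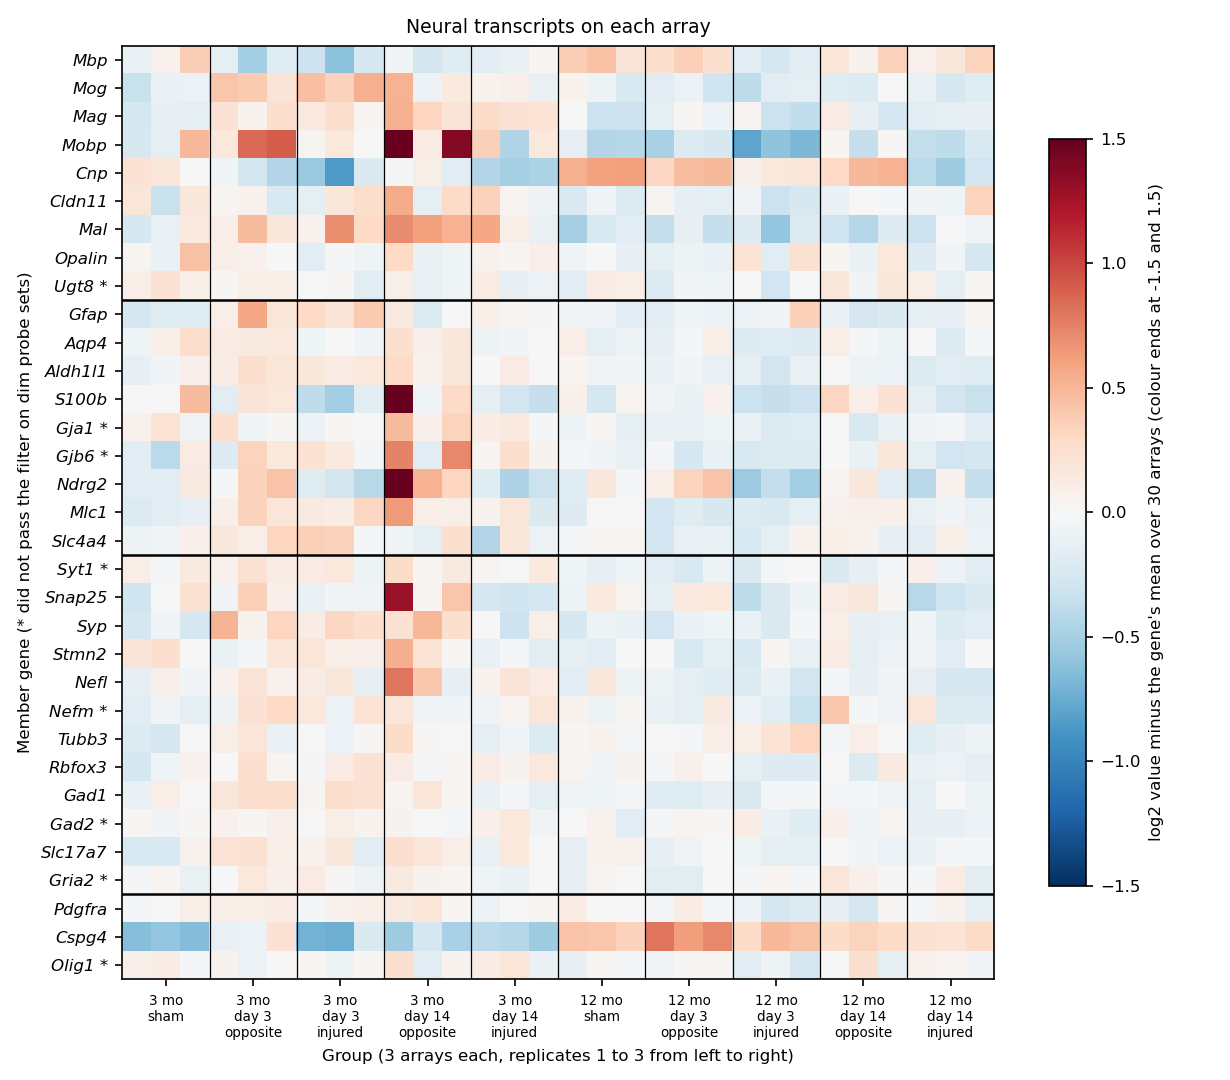
Deviation of each member's log2 value from its own mean over 30 arrays, with arrays in columns by group (3 each), members in rows by cell class, and an asterisk on the 8 members that did not pass the filter. The first array of the 3-month, day 14, opposite hemisphere is the darkest column for S100b, Ndrg2, Mobp and Snap25, and Cspg4 is higher across the 12-month columns than across the 3-month columns.

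Mobp, S100b, Ndrg2 and Snap25 were the 4 members with a lower value in the injured than in the opposite hemisphere in all 12 stroke animals. That is 12.1% of the 33 members, against 5.09% of all tested genes, and no member was higher in all 12 animals, against 9.24% of all tested genes. These genes come from each of the 3 cell types: Mobp encodes a structural protein of compact myelin, Ndrg2 and S100b are astrocyte proteins (S100b binds calcium), and Snap25 is part of the machinery that fuses synaptic vesicles. Taken by comparison, the members lower in all 3 animals numbered 11 at 3 months and day 3 (33.3%, against 24.3% of tested genes) and 13 at 3 months and day 14 (39.4% against 21.5%). At 12 months the same counts were 14 on day 3 (42.4% against 28.8%) and 15 on day 14 (45.5% against 22.4%).

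Ndrg2 gave the largest hemisphere difference among the members' probe sets used. On day 14 at 3 months its log2 values were 7.31, 6.18 and 5.98 in the opposite hemisphere and 5.47, 5.20 and 5.33 in the injured hemisphere. The groups did not overlap, although the first opposite array was far above the others. The injured hemisphere was lower by -1.16 log2 units (SE 0.20, limma with Benjamini-Hochberg adjusted p = 7.8e-05), a 2.23-fold difference, and by -0.75 (SE 0.15, adjusted p = 5e-04) without that array. At 12 months and day 3 the values were 5.76, 5.996 and 6.08 in the opposite hemisphere and 5.12, 5.30 and 5.15 in the injured hemisphere, again without overlap. This difference was -0.76 log2 units (SE 0.20, adjusted p = 0.0045). The difference at 3 months and day 3 was -0.54 (SE 0.20, adjusted p = 0.057 by limma), with values of 5.64, 6.01 and 6.08 against 5.48, 5.39 and 5.25. That difference passed the threshold once the animal was a block in the fit (adjusted p = 0.043 as a random block and 0.033 as a fixed block). At 12 months and day 14 it was -0.26 (SE 0.20, adjusted p = 0.46).

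S100b showed how much 1 array can carry. In the opposite hemisphere at 3 months and day 14 it read 8.03, 5.73 and 6.08, and in the injured hemisphere 5.65, 5.51 and 5.45. The fitted difference was -1.08 log2 units (SE 0.29, adjusted p = 0.008 by limma), and it fell short of the threshold without the first opposite array (-0.37, adjusted p = 0.068). In the other comparisons S100b was lower in each animal, by between -0.21 and -0.72 at 3 months and day 3 and between -0.25 and -0.56 over the 12-month animals, but none of those differences passed the test (adjusted p between 0.32 and 0.49 by limma). The spread of S100b in the fit was widened by the same array, since all 10 groups share 1 estimate of it.

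Mobp, the myelin protein, varied with the animal. On day 14 at 3 months the opposite hemisphere gave 6.88, 5.52 and 6.78 and the injured hemisphere of the same animals 5.76, 4.95 and 5.56, so that the second animal was the lowest on both sides. The groups overlapped, and the difference was -0.97 log2 units (SE 0.24, adjusted p = 0.0043 by limma), or -0.73 (adjusted p = 0.048) without the first opposite array. On day 3 at that age it read 5.56, 6.25 and 6.31 against 5.45, 5.56 and 5.40. The difference of -0.57 had an adjusted p = 0.10 by limma without the animal and 0.0067 with the animal as a fixed block.

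Snap25 read 5.90, 4.63 and 5.02 in the opposite hemisphere at 3 months and day 14 and 4.35, 4.31 and 4.34 in the injured hemisphere. The 3 injured values were tight and below every opposite value, and the difference was -0.85 log2 units (SE 0.18, adjusted p = 0.00079 by limma), or -0.49 (adjusted p = 0.011) without the first opposite array. At 12 months and day 14 the opposite values were 4.73, 4.77 and 4.63 and the injured values 4.19, 4.31 and 4.38, also without overlap. The -0.42 difference there did not pass (SE 0.18, adjusted p = 0.12 by limma).

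**Figure D2:**
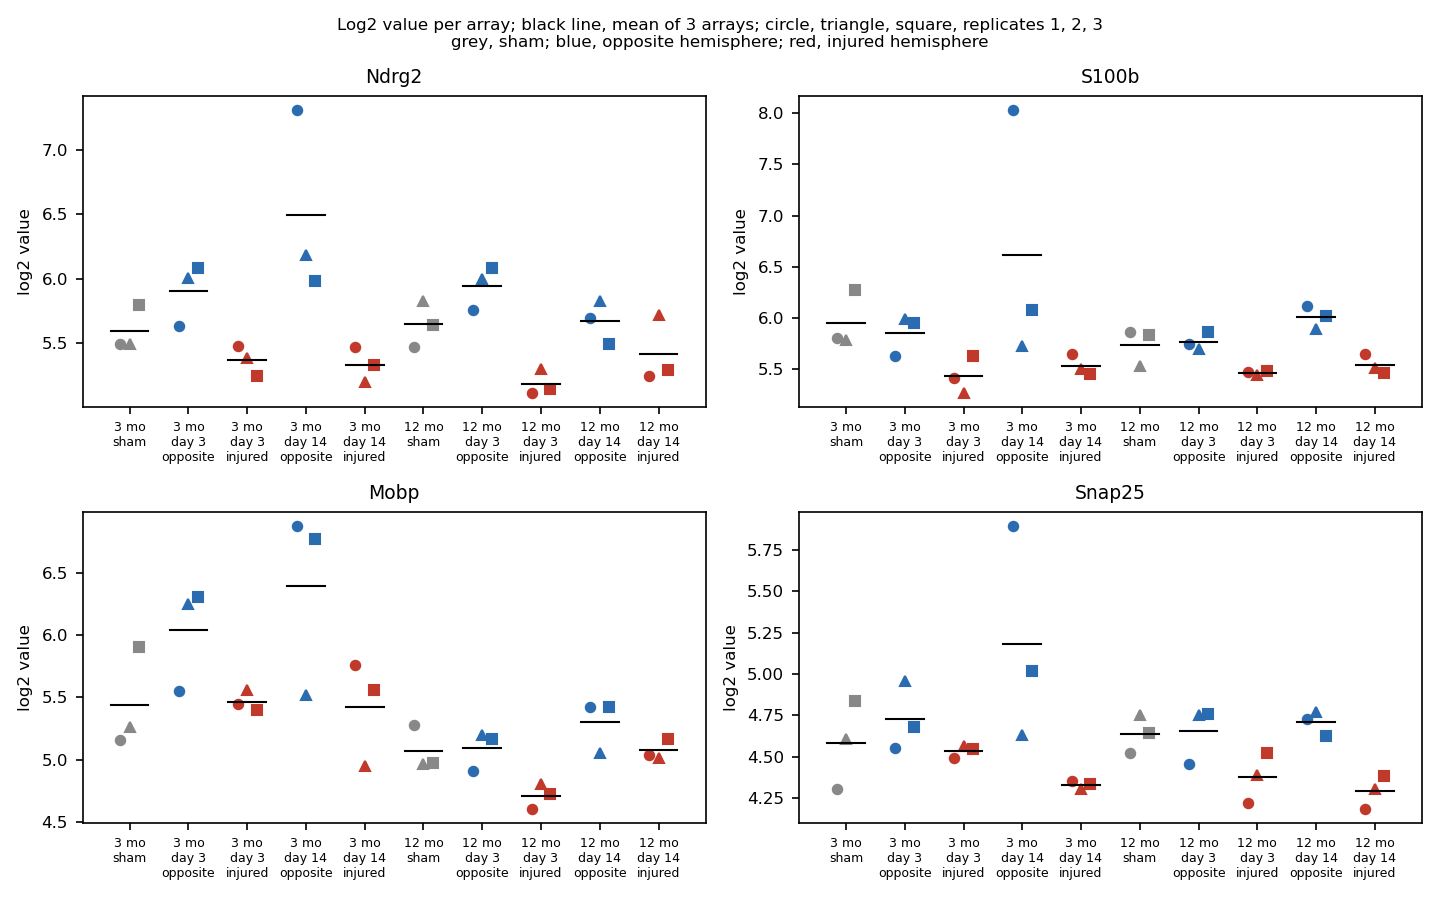
Log2 value of Ndrg2, S100b, Mobp and Snap25 on each array by group (circle, triangle and square are replicates 1 to 3, the black line is the mean of 3, grey is sham, blue the opposite hemisphere and red the injured hemisphere). The same blue circle at 3 months and day 14 is the highest point in all 4 panels, at 7.31, 8.03, 6.88 and 5.90.

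The sequence before the start is shown for 3 members that were called lower in the injured hemisphere at 3 months and day 14. Ndrg2 and S100b are astrocyte members and Cnp is an oligodendrocyte member, and no neuron member is shown. Of the 7 members lower in that comparison 5 had an entry in the RefSeq promoter table (build GRCr8). The 3 shown were picked from these by hand. The 250 bases before the start are printed 5′ to 3′ on the gene's own strand, with capitals where a searched motif matched on either strand: the GC box GGGCGG, the PU.1 core GAGGAA, the SOX core ACAANG and the TATA box TATAAA. Ndrg2, on the minus strand at chr15:27083121-27083370, has 2 starts in the table, and the one farther upstream is shown. S100b lies on the minus strand at chr20:12381082-12381331 and Cnp on the plus strand at chr10:86011254-86011503.
Ndrg2: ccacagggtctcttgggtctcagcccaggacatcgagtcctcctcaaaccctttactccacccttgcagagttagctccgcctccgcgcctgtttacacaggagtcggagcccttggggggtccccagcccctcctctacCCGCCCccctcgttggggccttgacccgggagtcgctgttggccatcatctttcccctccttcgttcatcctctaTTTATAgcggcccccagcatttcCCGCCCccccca
S100b: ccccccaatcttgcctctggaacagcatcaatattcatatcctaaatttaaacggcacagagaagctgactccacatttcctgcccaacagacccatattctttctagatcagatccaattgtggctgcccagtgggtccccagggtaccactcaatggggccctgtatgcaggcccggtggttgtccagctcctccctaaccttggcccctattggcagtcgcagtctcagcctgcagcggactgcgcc
Cnp: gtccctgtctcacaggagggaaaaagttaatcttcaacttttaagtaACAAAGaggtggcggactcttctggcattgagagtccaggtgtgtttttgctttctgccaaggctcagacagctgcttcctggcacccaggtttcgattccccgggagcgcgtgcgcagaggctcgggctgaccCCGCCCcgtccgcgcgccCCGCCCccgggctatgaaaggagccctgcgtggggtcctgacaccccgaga
The GC box matched at 2 places in Ndrg2 and at 2 in Cnp, against 30.5% of all 33469 windows of this length holding at least 1 match. The TATA box matched in Ndrg2 (12.9% of all windows) and the SOX core in Cnp (36.9%). No window of the 3 held the PU.1 core (23.3%), and S100b held none of the 4 motifs. No motif was shared by all 3 members, and the matches did not overlap each other.

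Comparing hemispheres over all members, no member was called higher in the injured hemisphere at either age or day. At 3 months and day 14, 7 of the 25 tested members were lower (28%), against 7.09% of all tested genes called lower: Ndrg2, S100b, Mobp, Snap25, Cnp, Syp and Stmn2. Without the array that stood apart 5 were lower (20% against 5.47%), with S100b and Stmn2 no longer called. A fit of only the 6 arrays compared called 3 (12% against 3.13%), and quantile normalization without that array called 4 (16% against 7.4%). On day 3, 1 member was lower (4%, against 8.95% of tested genes), which was Cspg4. With the animal as a block the count there was 2 with a random block (adding Ndrg2) and 3 with a fixed block (adding Mobp too). At 12 months 3 members were lower on day 3 (12% against 10.0%) and 1 on day 14 (4% against 5.94%). The share of members called lower was above that of all tested genes at 3 months and day 14 in each of these settings. In the other comparisons the members' share was near or below that of all tested genes in the fit of all arrays. With only the arrays compared or only 1 age, 6 or 7 members in place of 3 were called at 12 months and day 3. On day 14 at that age 3 in place of 1 were called, with both directions counted together. No share of all tested genes is given outside 3 months and day 14 for settings other than the fit of all arrays. Whether 3 months and day 14 stands apart under like settings was therefore not tested. The counts of members higher in the injured hemisphere were 0 at an unadjusted p under 0.05 as well, in all 4 comparisons by limma. Tested genes called higher made up 11.5%, 13.2%, 18.7% and 10.9% in the same order.

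The median hemisphere difference over the 33 members was -0.06 and -0.17 log2 units at 3 months on days 3 and 14, and -0.08 and -0.09 at 12 months. Over all tested genes the medians were -0.01 in each. After quantile normalization the member medians were -0.04, -0.11, -0.03 and -0.06, and with arrays centred on their medians -0.05, -0.12, -0.03 and -0.06. Centring also moved the medians over all tested genes, to -0.0073, 0.03, 0.03 and 0.02. Without the array that stood apart, the member median at 3 months and day 14 was -0.09. A negative difference was found for 24, 26, 23 and 27 of the 33 members in the same order. These counts include the 8 members that did not pass the filter, and no share of all genes is set beside them. None of the 8 members that did not pass the filter was called between hemispheres in a fit over all named genes; over all 21 comparisons Gjb6 gave the 1 call among them, higher in the opposite hemisphere than in sham at 3 months and day 14 (0.58, adjusted p = 0.0058 by limma). The astrocyte members that define the class were among those with no call: Gfap differed by 0.01, 0.05, 0.18 and 0.11 and Aqp4 by -0.16, -0.20, -0.17 and -0.07 log2 units, with SE of 0.11 and 0.09. Gfap, the intermediate filament protein of reactive astrocytes, had a 95% interval of -0.22 to 0.24 at 3 months and day 3, and of -0.18 to 0.28 on day 14.

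**Figure D3:**
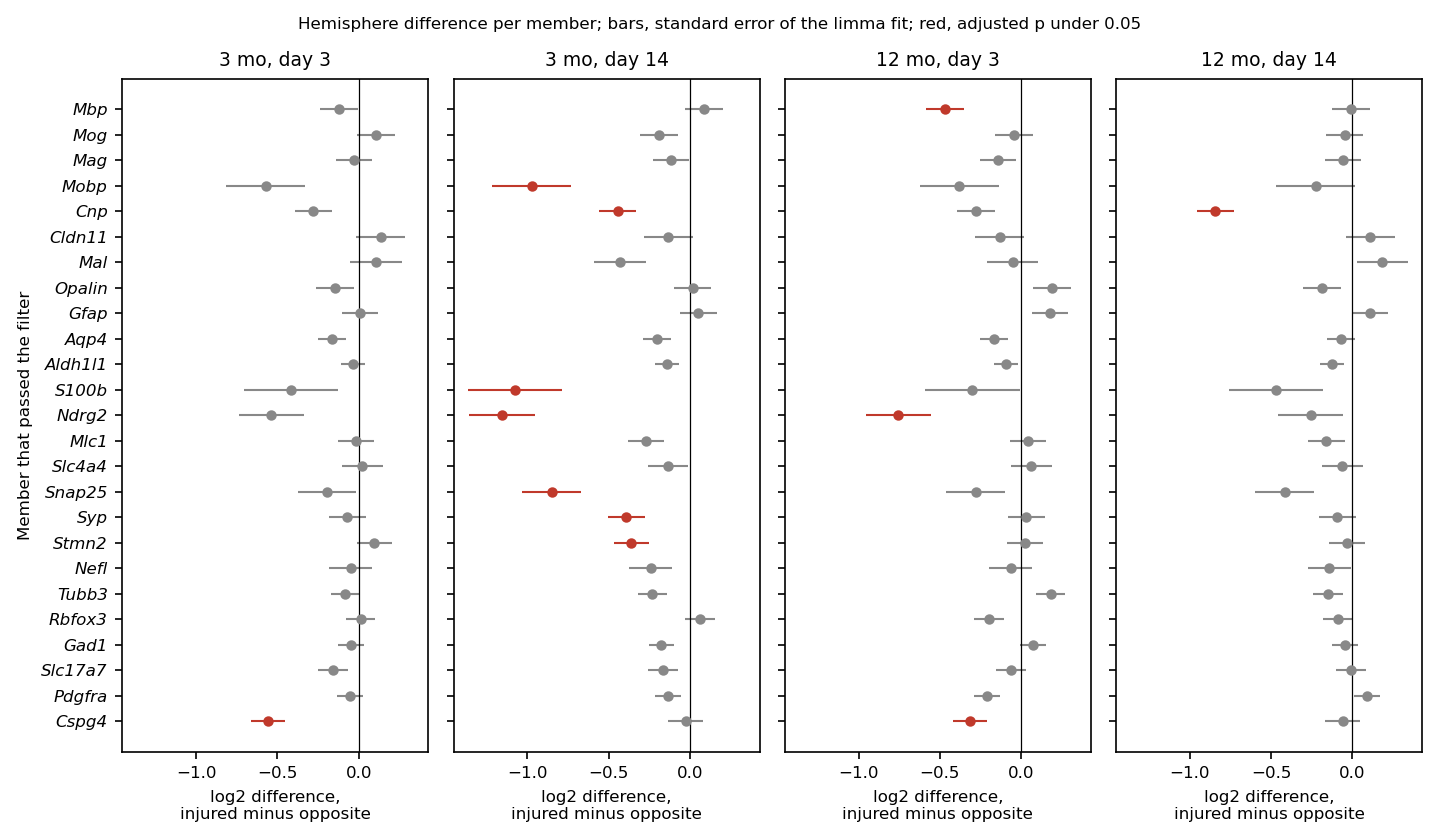
Log2 difference, injured minus opposite hemisphere, for the 25 members that passed the filter, with the standard error of the limma fit as bars and red where the adjusted p was under 0.05. All red points lie to the left of 0, 7 of them at 3 months and day 14, from Ndrg2 at -1.16 to Stmn2 at -0.36.

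The 2 remaining neuron members called at 3 months and day 14 moved less. Syp, a synaptic vesicle membrane protein, read 5.12, 5.39 and 5.14 in the opposite hemisphere and 4.90, 4.58 and 4.99 in the injured hemisphere. Its difference was -0.39 log2 units (SE 0.11, adjusted p = 0.013 by limma), and -0.44 (adjusted p = 0.015) without the array that stood apart. Syp lost the call without the second replicate of either hemisphere, and Stmn2, a microtubule-regulating protein of growing axons (-0.36, SE 0.11, adjusted p = 0.018), lost it without the array that stood apart (-0.21, adjusted p = 0.18) and without the first or the third injured array. At 12 months Syp differed by less than its spread, with values of 4.61, 4.79 and 4.82 against 4.79, 4.67 and 4.86 on day 3.

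Cnp, an enzyme of non-compact myelin, was lower on the injured side at 3 months and day 14 and most strongly at 12 months and day 14. At 12 months and day 14 it read 7.17, 7.35 and 7.38 in the opposite hemisphere and 6.46, 6.34 and 6.58 in the injured hemisphere, a difference of -0.84 log2 units or 1.79-fold (SE 0.11, adjusted p = 2.3e-06 by limma). On day 3 at that age it read 7.18, 7.33 and 7.35 against 6.94, 7.03 and 7.05. Those groups did not overlap either, but the difference was smaller and was not called. The change of the hemisphere difference between days was -0.57 log2 units at 12 months (SE 0.16, adjusted p = 0.034 by limma), where 1 of 25 members and 5.34% of tested genes differed between days. It was not called with the animal as a fixed block or after quantile normalization, nor in 8 of 12 fits without 1 array; the 4 that kept it left out the third opposite or the first injured array of day 3, or the first opposite or the third injured array of day 14. On day 14 at 3 months Cnp read 6.85, 6.95 and 6.71 against 6.43, 6.37 and 6.39 (-0.44, SE 0.11, adjusted p = 0.0055 by limma), a call that held in every alternative tried, with an adjusted p = 0.018 without the array that stood apart.

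Cspg4 encodes the NG2 proteoglycan of oligodendrocyte precursors and pericytes. In the opposite hemisphere at 3 months and day 3 it read 8.27, 8.28 and 8.59, and in the injured hemisphere 7.66, 7.65 and 8.16. The groups did not overlap, and the difference was -0.56 log2 units (SE 0.11, adjusted p = 0.00024 by limma). Sham at that age read 7.74, 7.79 and 7.72. The opposite hemisphere on day 3 was higher than sham by 0.63 log2 units, a call kept in every alternative, and the injured hemisphere was not called against sham. On day 14 at that age the values were 7.84, 8.11 and 7.89 against 7.98, 7.95 and 7.84, with no difference called. The change of the hemisphere difference from day 3 to day 14 was 0.53 log2 units (SE 0.15, adjusted p = 0.042 by limma), where 3.81% of tested genes changed between days. It was lost after quantile normalization, with the fit limited to the 3-month arrays (adjusted p = 0.17), and in 7 of 12 fits without 1 array: the first or second injured array or the third opposite array of day 3, and the first or the third opposite array or the first or the second injured array of day 14. At 12 months and day 3 Cspg4 was also lower on the injured side (-0.31, SE 0.11, adjusted p = 0.027), with 9.17, 9.001 and 9.10 against 8.65, 8.86 and 8.82, and this call was lost without the first or the third opposite array or the first injured array, and with arrays centred on their medians (adjusted p = 0.069).

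Mbp, the main protein of the inner myelin surface, had 2 probe sets that did not move together. The probe set used (mean 7.64) ranged over 1.06 log2 units across the 30 arrays, and the second (mean 6.88) over 3.46. On the second, the opposite hemisphere at 3 months and day 14 gave 9.18, 7.23 and 8.44 and the injured hemisphere 7.34, 6.46 and 7.34. Tested as a feature of its own, an alternative added after the data were seen, the second probe set was lower in the injured hemisphere by -1.23 log2 units (SE 0.31, adjusted p = 0.0041 by limma), and by -0.79 (adjusted p = 0.064) without the first opposite array. With the animal as a fixed block the adjusted p was 4.8e-05 on day 14 and 0.0012 on day 3 at that age, where the difference was -0.85. At 12 months it differed by -0.28 on day 3 and -0.24 on day 14 (adjusted p = 0.55 and 0.69 by limma). The second probe set was lower on the injured side in all 12 animals, as Mobp was.

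The Mbp probe set used gave a different picture. Its 3 animals at 3 months and day 14 differed by -0.12, 0.16 and 0.21 log2 units, and it was not called. At 12 months and day 3 it read 7.88, 7.998 and 7.87 in the opposite hemisphere and 7.48, 7.39 and 7.48 in the injured hemisphere, a difference of -0.47 (SE 0.12, adjusted p = 0.0029 by limma), which was not called for the mean of both probe sets (adjusted p = 0.15). No source used here says which transcripts of the gene each probe set reads, so no level of one can be set against the other. The mean of both probe sets turned the sign of 2 Mbp differences, at 3 months: the hemisphere difference on day 14 became -0.57 (adjusted p = 0.029), and the opposite hemisphere against sham on day 3 became 0.28 (adjusted p = 0.22).

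**Figure D4:**
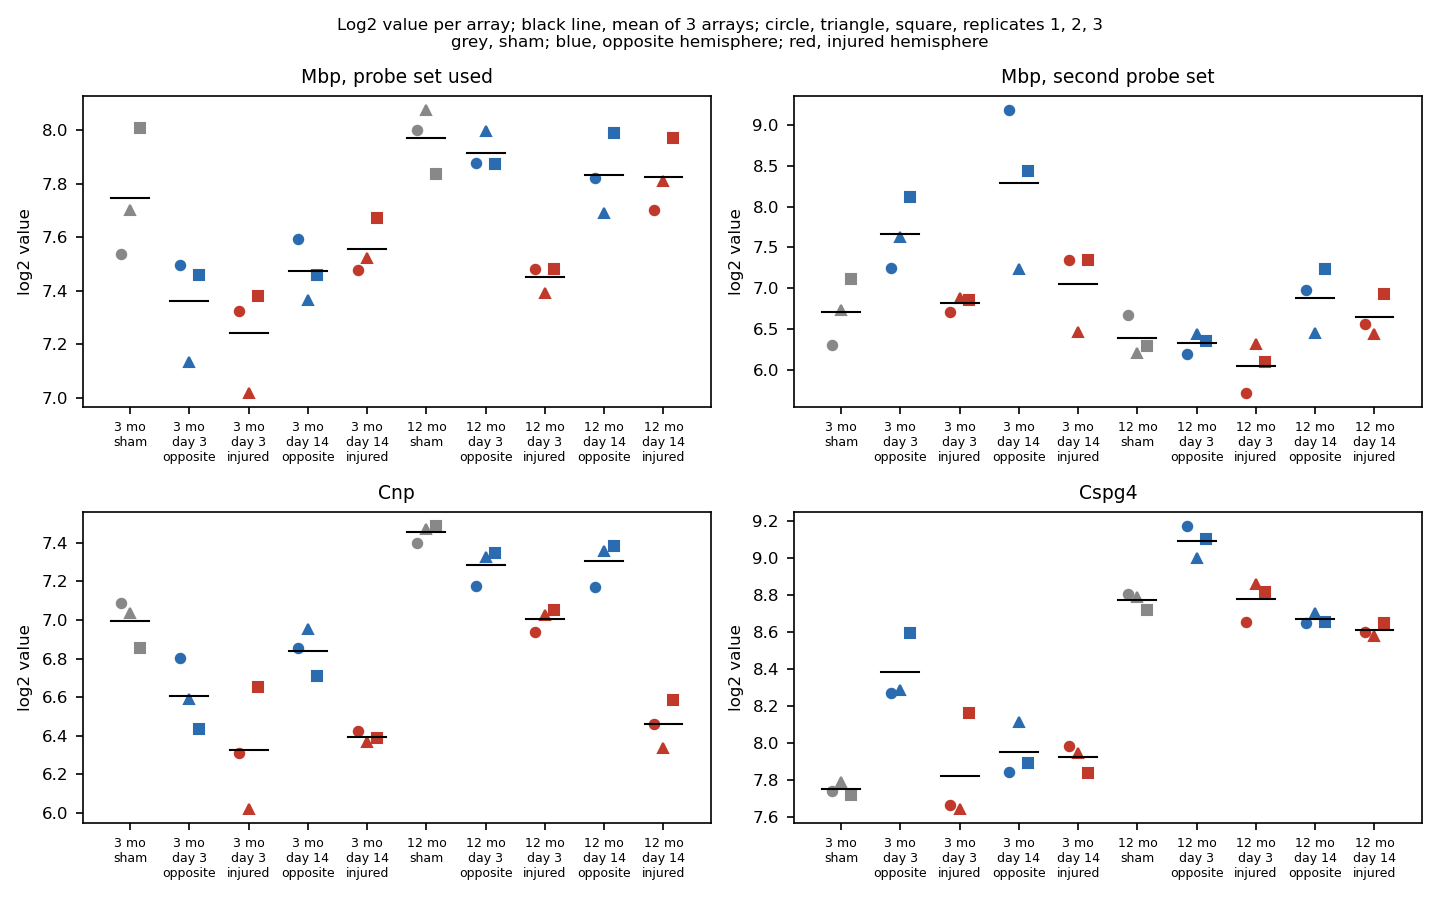
Log2 value per array of both Mbp probe sets, Cnp and Cspg4 by group (circle, triangle and square are replicates 1 to 3, the black line is the mean of 3). The second Mbp probe set reaches 9.18 in the opposite hemisphere at 3 months and day 14, Cnp in red at 12 months and day 14 (6.34 to 6.58) lies below blue (7.17 to 7.38), and Cspg4 lies between 8.58 and 9.17 on the 12-month arrays.

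Compared with sham, the members split by age. At 3 months, 11 of 25 members were higher in the opposite hemisphere on day 3 (44%, against 14.4% of all tested genes) and 2 were lower (8%, against 37.2%). On day 14, 12 were higher (48% against 10.4%) and 0 lower (0% against 28.4%). At an unadjusted p under 0.05 by limma, for which no share of all tested genes is given, 1 member was lower. In the injured hemisphere at 3 months, 7 were higher on day 3 (28% against 20.9%) and 2 lower (8% against 35.9%), and on day 14 1 was higher (4% against 11.0%) and 1 lower (4% against 23.4%). The sample codes carry 1 number for each of the 3-month sham, day 3 and day 14 sets and 1 for all 12-month samples. No label says what this number stands for, and whatever it marks cannot be told apart from the 3-month groups. The spread of log2 values within an array was also lower on the 12 arrays of 3-month stroke animals (1.79 to 1.93) than on the 18 others (1.94 to 2.05). After quantile normalization the members called in the opposite hemisphere at 3 months and day 3 fell in number from 13 to 5, with a median of 0.09 in place of 0.18 log2 units. Without the second opposite array of day 3, 8 were called there. On day 14, 7 in place of 12 were called on the opposite side without the first sham array or without its own first array, and 4 in place of 2 on the injured side without the third sham array.

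Markers of other cells were also called against sham in the same 3-month comparisons, where many genes were called. On days 3 and 14, 37.2% and 28.4% of all tested genes were lower on the opposite side and 35.9% and 23.4% on the injured side. Those called higher were 14.4% and 10.4% on the opposite side and 20.9% and 11.0% on the injured side. Of 13 microglia markers 4 were lower in the opposite hemisphere on day 3 and 7 on day 14 (2 and 0 higher), and 9 and 8 in the injured hemisphere (2 and 1 higher). Of 10 tested endothelial genes 5 and 4 were lower on either side on days 3 and 14, and 1 was higher, on the injured side on day 3. Of 5 tested ependyma and choroid plexus genes 2 and 1 were higher on the opposite side and 3 and 1 on the injured side. Of 2 tested red cell genes 1 was higher on the opposite side on each day. Of 12 tested pericyte, smooth muscle and fibroblast genes 1 and 2 were higher on the opposite side and 2 and 1 on the injured side, with 1 lower in each. The part of these genes in the members' differences from sham was not tested.

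The members called higher on the opposite side on day 3 were 3 oligodendrocyte, 3 astrocyte, 4 neuron and 1 lineage and precursor members. Among the probe sets used, the largest was Cspg4 (0.63). It kept the call in every alternative, as did the vesicle protein Syp (0.47). The myelin proteins Mog and Mag and the astrocyte proteins Gfap and Mlc1 were among the others. The myelin genes did not move together, since Cnp and the Mbp probe set used were lower there. Of 10 tested oligodendrocyte genes listed apart from the members, 1 was higher and 3 lower on the opposite side on day 3. On day 14, 0 were higher and 2 lower. Of all tested genes 14.4% and 10.4% were called higher and 37.2% and 28.4% lower on these days. Mog, on the outermost myelin layer, read 4.55, 4.78 and 4.79 in 3-month sham, 5.30, 5.27 and 5.08 in the opposite hemisphere on day 3 and 5.33, 5.22 and 5.42 in the injured hemisphere on day 3. The sham values lay below all of the stroke values, by 0.51 log2 units on the opposite side (SE 0.12, adjusted p = 0.00056 by limma) and 0.62 on the injured side (adjusted p = 4.7e-05). Gfap read 4.52, 4.60 and 4.60 in sham, and 4.88, 5.36 and 4.97 and 5.08, 4.97 and 5.18 on the 2 sides on day 3 (0.50 and 0.51, adjusted p = 0.00048 and 0.00032). Both Gfap calls and both Mog calls on day 3 held in every alternative tried. Among the probe sets used, the largest on the opposite side on day 14 were Mobp (0.95, SE 0.24, adjusted p = 0.0029), Ndrg2 (0.90, SE 0.20, adjusted p = 0.00087) and Mal, a myelin proteolipid (0.69, SE 0.16, adjusted p = 0.0011). Without the first opposite array the first was 0.71, the second 0.49 and the third 0.64, all still called by limma, and 7 members were called in place of 12 (6 higher, and Mbp lower). The second Mbp probe set was higher there by 1.57 log2 units (SE 0.31, adjusted p = 0.00024 by limma), and by 1.12 (adjusted p = 0.0042) without that array.

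Cnp and Mbp were the members lower than sham at 3 months and day 3. Cnp read 7.09, 7.04 and 6.86 in sham, 6.80, 6.59 and 6.43 in the opposite hemisphere on day 3 and 6.31, 6.02 and 6.65 in the injured hemisphere on day 3. The opposite side differed by -0.38 (SE 0.11, adjusted p = 0.006 by limma) and the injured side by -0.66 (SE 0.11, adjusted p = 1.3e-05), and the first of these was lost after quantile normalization and without the third opposite array. On day 14 the injured side of Cnp differed by -0.60 (SE 0.11, adjusted p = 0.00013), a call kept in every alternative. The Mbp probe set used differed on day 3 by -0.39 on the opposite side (SE 0.12, adjusted p = 0.0072) and by -0.51 on the injured side (SE 0.12, adjusted p = 0.00054). Both Mbp calls were lost after quantile normalization (adjusted p = 0.84 and 0.22) and with the mean of both probe sets (adjusted p = 0.22 and 0.37), and the first also without the third sham or the second opposite array. The second Mbp probe set was higher than sham on the opposite side by 0.95 on day 3 (SE 0.31, adjusted p = 0.011 by limma).

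At 12 months, where all samples carry the same code number, 0 members were called in the opposite hemisphere against sham on either day by limma. Without adjustment, p was under 0.05 for 1 member, higher on day 3, and for 0 on day 14. Of all tested genes 1.16% were called higher and 0.128% lower on day 3, and 0.00857% higher and 0% lower on day 14. In the injured hemisphere on day 3, 3 members were lower (12% against 14.3% of tested genes called lower): Mbp, Cnp and the precursor receptor Pdgfra. None was called higher on day 3 (against 22.7%) or on day 14 (against 11.9%), with 1 and 0 at an unadjusted p under 0.05. Mbp read 8.001, 8.07 and 7.84 in sham, above each of the injured values given earlier, and differed by -0.52 (SE 0.12, adjusted p = 0.00069 by limma), a call lost with the mean of both probe sets (adjusted p = 0.072). Pdgfra read 4.41, 4.31 and 4.30 in sham and 4.22, 4.04 and 4.11 in the injured hemisphere. That -0.22 difference (SE 0.08, adjusted p = 0.032 by limma) was lost without the first or second sham array or the second or the third injured array. On day 14, 1 member was lower (4% against 8.09%): Cnp, at 7.40, 7.47 and 7.49 in sham, by -0.99 log2 units or 1.99-fold (SE 0.11, adjusted p = 1.1e-07), in every alternative tried.

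The means over the members of each class differed in where the hemispheres separated. At 12 months every injured array lay below every opposite array of its day for the astrocyte class, at -0.23 to -0.14 against -0.11 to -0.01 on day 3 and -0.17 to -0.11 against -0.03 to 0.06 on day 14. The neuron class did so on day 14, at -0.13 to -0.09 against -0.04 to 0.06, and the groups overlapped on day 3. The oligodendrocyte class separated on day 3, at -0.28 to -0.14 against -0.10 to 0.02, and overlapped on day 14, at -0.16 to -0.05 against -0.08 to 0.08. At 3 months and day 14 the opposite hemisphere ranged from 0.03 to 0.70 for the astrocyte class. Its arrays other than the one that stood apart read 0.03 and 0.26, and all injured arrays lay lower, at -0.11 to 0.01. The neuron class separated there too, at -0.05 to -0.01 against 0.07 to 0.35, and the oligodendrocyte class overlapped. On day 3 at 3 months the oligodendrocyte class separated, at -0.06 to 0.05 against 0.09 to 0.13, and the astrocyte and neuron classes overlapped. The lineage and precursor class separated on day 3 at 12 months (-0.01 to 0.05 against 0.24 to 0.25) and narrowly at 3 months. It holds only 3 genes with a probe set. At 3 months and day 3 Cspg4 differed by -0.56, Pdgfra by -0.06 and Olig1, which did not pass the filter, by 0.003. At 12 months and day 3 the differences were -0.31, -0.21 and -0.16 in the same order. This class overlapped on day 14 at both ages. Lists of other cells separated too. At 3 months and day 14 the red cell genes lay at -0.04 to 0.07 against 0.08 to 0.295. The pericyte, smooth muscle and fibroblast genes lay at -0.001 to 0.07 against 0.09 to 0.21. The endothelial and the ependyma and choroid plexus genes overlapped there. At 12 months and day 3 the median of all probe sets was 5.058 to 5.079 on injured and 5.11 to 5.125 on opposite arrays. The part of such shifts in the class means was not tested.

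**Figure D5:**
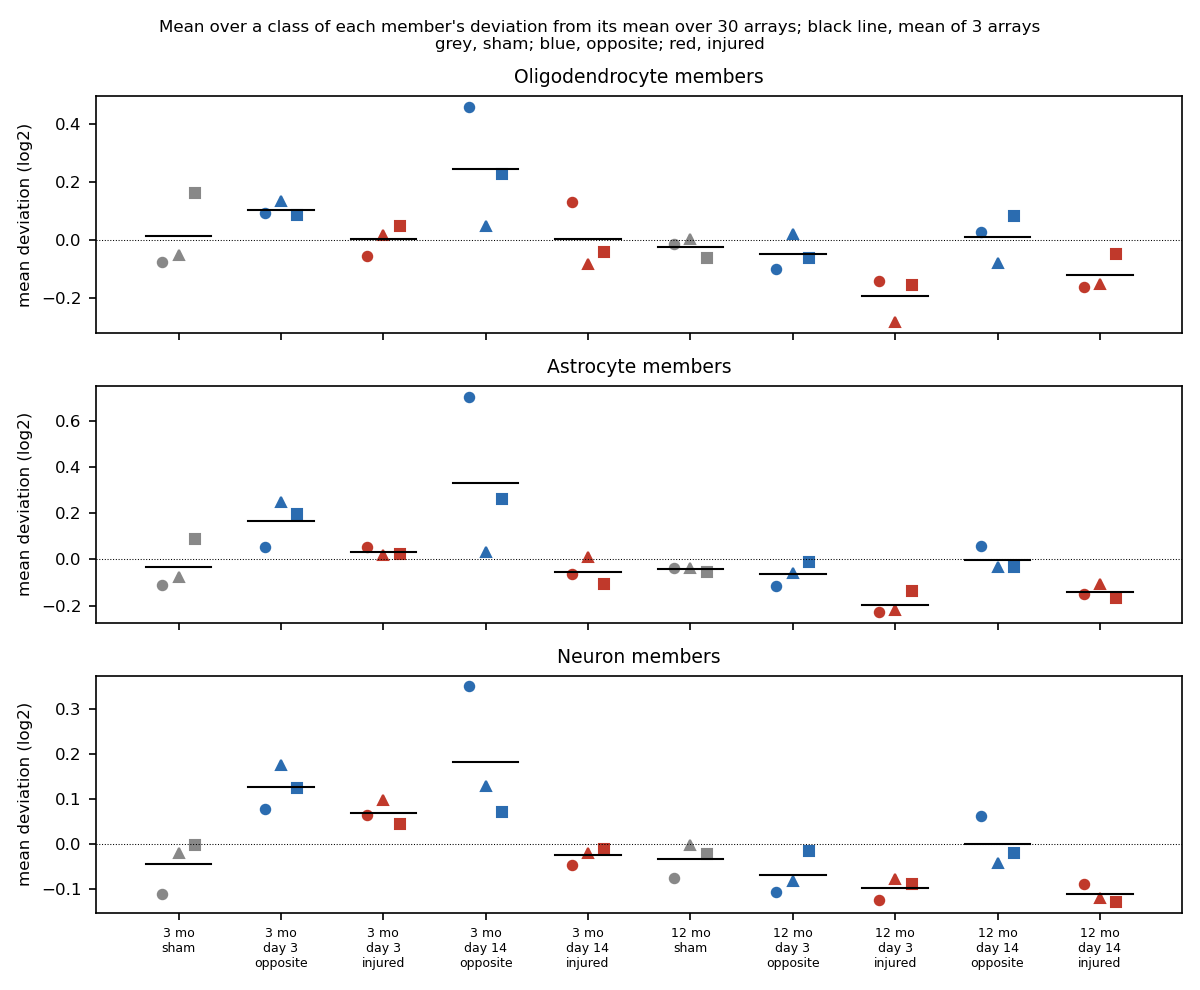
Mean over the oligodendrocyte, astrocyte and neuron members of each member's log2 deviation from its mean over 30 arrays, per array (symbols for replicates 1 to 3) with the mean of 3 arrays as a line. The blue circle at 3 months and day 14 is the highest array in each panel, and the red arrays at 12 months and day 14 lie below 0 in all 3.

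Between days, few members moved. In the injured hemisphere at 3 months, 1 member was higher on day 14 (4% against 22.0% of tested genes) and 3 were lower (12% against 7.51%): Mbp by 0.32, and Mog by -0.44, the sodium bicarbonate cotransporter Slc4a4 by -0.34 and the GABA-synthesising enzyme Gad1 by -0.27 log2 units. The Mog decline from 5.33, 5.22 and 5.42 to 4.93, 4.96 and 4.77 (SE 0.12, adjusted p = 0.005 by limma) was the one of these 4 calls kept in every alternative. Without the second array of day 3 it was the 1 call there, and without the first of day 14 there were 2. At 12 months on the injured side 1 was higher (4% against 6.53%) and 2 lower (8% against 14.1%): Mbp by 0.38 log2 units, and Cnp by -0.55 and the neuronal tubulin Tubb3 by -0.33. Cnp kept its call in every alternative. Mbp lost it with the mean of both probe sets (adjusted p = 0.067) and without the second array of day 3 or the second or the third of day 14, and Tubb3 without the third array of day 3 (adjusted p = 0.065). In the opposite hemisphere Cspg4 was the 1 member called at each age, lower on day 14 by -0.43 at 3 months (4% of members against 1.84% of tested genes called lower) and by -0.42 at 12 months (4% against 0.925%). No member was called higher there, against 8.31% and 0.137% of tested genes, although 5 and 1 were higher at an unadjusted p under 0.05. The 12-month call was lost in all 6 fits without 1 array, and the 3-month call without the third replicate of day 3 on the opposite side (-0.33) and in a fit of the 3-month arrays alone. At 3 months the count there was 2 without the first array of either day, and 5 or 4 without the second or the third array of day 14.

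Cspg4 also differed most between ages. In sham it read 7.74, 7.79 and 7.72 at 3 months and 8.81, 8.79 and 8.72 at 12 months, with no overlap. The 12-month sham was higher by 1.02 log2 units or 2.03-fold (SE 0.11, adjusted p = 1.9e-07 by limma), and Cnp by 0.46 (SE 0.11, adjusted p = 0.0077), with 8% of tested members higher against 7.47% of tested genes. No member was called lower, against 5.52% (1 at an unadjusted p under 0.05). Both calls were kept in every alternative, but the ages also differ in their code number, whose meaning no label gives, and age cannot be told apart from what it marks. The hemisphere differences themselves were not called as different between ages for any member, on day 3 (unadjusted p under 0.05 for 1 in each direction) or day 14 (4 higher and 1 lower), where 1.58% and 0.00857% of tested genes differed by limma.

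Other genes of the same cell types were listed apart from the members. Between hemispheres 8.95% and 7.09% of all tested genes were called lower at 3 months on days 3 and 14, and 10.0% and 5.94% at 12 months. Those called higher were 11.5%, 13.2%, 18.7% and 10.9% in the same order. Of 10 tested other oligodendrocyte genes 1 was lower in each of the 4 comparisons and 0 were higher. It was Aspa, which breaks down N-acetylaspartate, by -0.86 and -0.60 log2 units at 3 months on days 3 and 14 and -0.52 and -0.64 at 12 months. Of 16 tested other neuron genes 2, 1, 1 and 1 were lower and 0, 0, 0 and 2 higher in the same order. Rtn1, a reticulon of the endoplasmic reticulum, was lower in each (-0.77, -0.80, -0.81 and -0.87). Of 16 tested other astrocyte genes 0, 3, 1 and 0 were lower and 1, 0, 2 and 0 higher. The 3 lower at 3 months and day 14 were the glycolytic enzyme Aldoc (-0.78), the glutamate transporter Slc1a2 (-0.46) and the secreted chaperone Clu (-0.28), and Clu was higher on day 3 (0.30). Of 7 tested other precursor genes 0, 1, 0 and 1 were lower and 1 was higher in each comparison. The higher one was the extracellular sulfatase Sulf2 in all 4 (1.84, 2.97, 1.82 and 3.05).

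Some genes for uptake and digestion differed between hemispheres by more than any member. Of 17 tested uptake receptor and lysosome genes, 5 and 8 were higher and 4 and 2 lower at 3 months on days 3 and 14. At 12 months 4 and 7 were higher and 7 and 3 lower. The shares of all tested genes in these comparisons are given above. The medians over the 18 with a probe set were -0.05, 0.14, -0.11 and 0.02 log2 units in the same order. Axl, a receptor for dying cells, was higher by 1.497 and 3.07 log2 units at 3 months and by 1.28 and 3.58 at 12 months. The lipid exporter Abca1 and the lysosomal protein Cd68 were also among the 3 largest in each. Microglia markers were lower on the injured side at the same time: 8, 7, 8 and 7 of 13 were lower and 1, 1, 0 and 1 higher, with Tmem119 lower by -1.52, -1.36, -1.37 and -1.38. Averaged over the 13, the injured arrays lay between -0.45 and -0.05 and the opposite arrays between -0.09 and 0.36 log2 units from the genes' means over 30 arrays. The part of this change in microglial RNA in the members' values was not tested.

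Markers of vessels and blood were read beside the members. Of 10 tested endothelial genes, 2, 1, 4 and 1 were higher and 3, 1, 1 and 2 lower between hemispheres in the same order. Of all tested genes 11.5%, 13.2%, 18.7% and 10.9% were called higher and 8.95%, 7.09%, 10.0% and 5.94% lower. Of 12 tested pericyte, smooth muscle and fibroblast genes, 0 were higher in any comparison and 0, 1, 1 and 0 lower. Only 2 red cell genes were tested, and none was called. The averages that follow are over every listed gene with a probe set, tested or not. On the array that stood apart, the 4 red cell genes lay on average 0.295 log2 units above their means over 30 arrays, against -0.214 to 0.196 on the 29 others. The pericyte, smooth muscle and fibroblast genes lay at 0.09 (others -0.16 to 0.21), the endothelial genes at -0.04 (others -0.13 to 0.22) and the ependyma and choroid plexus genes at 0.12 (others -0.16 to 0.22). Their part in the members' values was not tested.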

How the data were processed

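The 30 arrays were deposited as log2 values for 29214 probe sets. The values were made by the authors with RMA in Affymetrix Expression Console, per the submitters' processing notes, with versions not given in the sources used here. Per the labels' protocols, RNA had integrity numbers above 7.0, and biotin-labelled cDNA (5 µg) was made from 50 ng of total RNA. RMA summarises and normalizes arrays together, so a sample's value depends on the whole set.

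Here probe sets were named through GEO's platform annotation (15310 with 1 symbol, 323 with several, 13581 not listed), with 1 probe set per gene, the highest mean. Genes above the array's 30th percentile on at least 3 arrays were tested (11675) in 1 limma model of 10 group means (R 4.3.3, limma 3.58.1, 20 residual degrees of freedom, moderated variances), with Benjamini-Hochberg adjusted p under 0.05 as the call. The fit was tested on simulated data. The 21 comparisons were hemispheres, stroke against sham, days, ages of sham, and differences between these. All 35 members may be named, and of other lists the 3 called genes with the largest change per comparison. Members and lists were chosen with earlier results of these data known. Sample codes tie both hemispheres of an animal, so an animal block was an alternative (correlation 0.0719 by duplicateCorrelation, and pairs correlated between -0.079 and 0.211). The only depth on an array is its signal, and 3 arrays a group limit the precision.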

Additional observations from a re-analysis of the deposited data

Results flagged for a closer look

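In 2 members the hemisphere difference changed between days by the test of the change itself. For Cspg4 at 3 months the change from day 3 to day 14 was 0.53 log2 units (adjusted p = 0.042 by limma). The opposite side was higher than sham by 0.63 on day 3, and differed by -0.43 between day 14 and day 3. The injured side was not called against sham on day 3, nor between the days. For Cnp at 12 months the change was -0.57 (adjusted p = 0.034 by limma), since the injured side was lower by more on day 14. Groups of 3 arrays were not tested for a single distant array, and the array named in the report is given there with its values.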

How the results depend on the processing

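Counts of members called, in the order day 3 then day 14 and 3 months before 12 months, were as follows where they moved by over 1.5 times. These counts take both directions together, and the shares of all tested genes under the same settings are not set beside them. A count that moved without such a share, here or in the report, is therefore not read as a change particular to the members. Between hemispheres at 3 months and day 3 the 1 call became 3 after quantile normalization, 2 with a filter at the 50th percentile, 2 with the replicate block (the animal) as a random term, 3 with it as a fixed term and 3 with only the arrays compared. At 3 months and day 14 the 7 became 3 with only the arrays compared and 4 with quantile normalization and without the first opposite array, a setting chosen after seeing the data. At 12 months the 3 of day 3 became 6 with only the arrays compared and 7 with only the arrays of 1 age, and the 1 of day 14 became 3 in both. Against sham at 3 months and day 3 the 9 of the injured side became 5 with the stricter filter, and the 13 of the opposite side 5 after quantile normalization and 7 with the stricter filter. On day 14 the 2 of the injured side became 4 and 1 by these settings, and the 12 of the opposite side 6 with the stricter filter, 6 with only the arrays compared and 5 with quantile normalization and without the first opposite array. At 12 months the injured side against sham gave 7 and 6 in place of 3 on day 3 with only the arrays compared or only 1 age, and 2 in place of 1 on day 14 with either, and the opposite side on day 3 gave 1 in place of 0 with 1 age. Between days at 3 months the 4 on the injured side became 2 by quantile normalization, 1 with only the arrays compared and 2 with 1 age, and the 1 on the opposite side 0 with the latter 2 settings. The 1 on the opposite side at 12 months became 0 with no filter. The change of the hemisphere difference between days went from 1 to 0 at 3 months after quantile normalization, with only the arrays compared and with 1 age, and at 12 months to 0 after quantile normalization and with the fixed replicate block and to 2 with 1 age. Leaving out 1 array at a time gave 1 to 3 and 5 to 9 calls between hemispheres at 3 months, 2 to 4 on day 3 at 12 months, 6 to 11 and 8 to 14 for the injured and opposite sides against sham at 3 months and day 3, and 2 to 4 and 7 to 13 on day 14. It gave 2 to 3 for the injured side against sham at 12 months and day 3. Between days it gave 1 to 5 and 0 to 5 at 3 months (injured, opposite), 2 to 3 and 0 to 0 at 12 months, and for the change of the hemisphere difference 0 to 2 at 3 months and 0 to 1 at 12 months. The mean of both Mbp probe sets turned the sign of Mbp in 2 comparisons at 3 months, to -0.57 between hemispheres on day 14 and to 0.28 on the opposite side against sham on day 3. The fits with fewer arrays estimate the spread from those arrays alone, and other causes were not tested. The replicate block changed no call of a member between hemispheres other than those given here or in the report and those of Mal at 3 months and day 14 (adjusted p = 0.04 and 0.027) and Pdgfra at 12 months and day 3 (0.043 as a random term). Centring arrays on the median and an intensity trend left every count within 1.5 times of the first. Signal over background limits the members close to the 30th percentile, and the 8 that did not pass the filter are given only from a fit over all named genes.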
